A study of Rattus norvegicus with 44 samples.

Results

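Fabp1 and 8 genes of fatty acid oxidation (Ppara, Cpt1a, Cpt2, Acadm, Acadl, Hadha, Ehhadh and Acsl1) were followed in H4-II-E-C3 cells, a rat hepatoma line, after exposure to 3 metals. The members were chosen by name with earlier results of these arrays known, Fabp1 for its low level after exposure. Every probe set that the array annotation gives to exactly 1 of these genes was used, which made 14 probe sets for 9 genes, of 31099 probe sets and 14217 named genes in all. No probe set named a member together with another gene. For a gene with several probe sets, the one with the highest mean over the 44 arrays carries the value of the gene.

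Cells were exposed for 24 hours in serum-free medium to nickel chloride (NiCl2; 40, 140 or 400 µM), sodium dichromate (Na2Cr2O7, a chromium(VI) salt; 0.275, 1 or 10 µM) or cadmium chloride (CdCl2; 0.2, 0.55 or 1.2 µM), or were left without metal. These conditions took 36 exposed arrays and 8 control arrays, with 4 biological replicates of each concentration and 2 control arrays per replicate. The concentrations of each metal were set by viability assays, the lowest without observed cell death and the higher ones with part of the cells dying, so a lower signal from fewer living cells of a kind and one from less RNA per cell cannot be told apart. The values are log2 signals of single arrays, and a difference of 1 is a 2-fold difference.

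The condition of each array was taken from an order of the sample titles and not from the title attached to each array. The titles were listed in series order, the 4 that name a repeated microarray were moved to the end, and the first title was given to the first array column, the next to the next and so on. In this order 22 of the 44 arrays kept the condition of their attached title and 22 received another. In replicates 1 and 2 the condition was the same for 20 of 22 arrays. Of the 8 control arrays, 6 were controls in both orders. Replicates scattered less in this order, as the median residual SD over all tested probe sets was 0.1248 (nickel), 0.126 (chromium) and 0.1164 (cadmium), against 0.1526, 0.1659 and 0.1523 for the same metals with the titles as attached. With the titles as attached, limma called 0 of 15521 probe sets lower and 0 higher than the controls at the high concentration of each metal. At an unadjusted p under 0.05, 2683 passed with nickel, 2834 with chromium and 1033 with cadmium. Every call against controls below thus depends on the order. In the tests between metals, the attached titles still left 2 members called with nickel below cadmium and 1 with nickel below chromium.

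Liver fatty acid binding protein, the product of Fabp1, carries long-chain fatty acids through the cytosol of hepatocytes. Acyl-CoA synthetases such as the product of Acsl1 activate the fatty acids, and carnitine palmitoyltransferase 1 (Cpt1a in liver) and 2 (Cpt2) move them across the mitochondrial membranes. Inside, acyl-CoA dehydrogenases for medium (Acadm) and long (Acadl) chains and the trifunctional protein (Hadha is its alpha subunit) shorten the chain in cycles, while Ehhadh is a bifunctional enzyme of the same cycle in peroxisomes. PPARα (Ppara), a nuclear receptor that fatty acids activate, is known to drive many of these genes in liver, Fabp1 included, as a dimer with the retinoid X receptor.

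The dimer is known to bind 2 copies of AGGTCA with 1 base between them (AGGTCANAGGTCA), and the sequence upstream of Fabp1 is shown because its best match to this motif was closer than that of any other member searched. Upstream sequences from RefSeq (GRCr8) were at hand for 8 of the 9 members, Acadl being the exception. The 250 bases before each start were searched on both strands. The 250 bases before the Fabp1 start lie on the plus strand at chr4:104749090-104749339, and capitals mark the window closest to the motif, which is read on the opposite strand.
Fabp1 upstream: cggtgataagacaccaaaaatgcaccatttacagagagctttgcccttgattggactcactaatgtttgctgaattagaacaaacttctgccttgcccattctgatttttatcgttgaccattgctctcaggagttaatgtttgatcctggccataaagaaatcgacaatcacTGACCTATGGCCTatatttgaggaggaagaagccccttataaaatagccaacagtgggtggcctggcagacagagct
The window lay 77 to 65 bases before the start and matched 11 of the 12 motif letters. Of 33469 promoters searched over the same length, 123 (0.368%) had a match at least as close. The closest windows of Hadha, Cpt1a and Cpt2, read on the coding strand 5′ to 3′, are set beside that of Fabp1 to show how far they depart, with matching letters in capitals.
Fabp1: AGGcCAtAGGTCA
Hadha: AGGTCtttGGTCt
Cpt1a: tGGTttctGGTCA
Cpt2: tGtTCAgAGacCA
Hadha matched 9 of 12 letters, which 21.4% of all promoters reached, and Cpt1a and Cpt2 matched 8, which 74.5% reached. Ppara and Ehhadh also matched 8, and Acadm and Acsl1 matched 7, which 99.6% reached. A match is a description of the letters, and a poor match says only that the letters are not in this window.

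Fabp1 was lower at the high concentration of each metal in all 4 replicates. At 400 µM nickel its log2 signal was 5.28, 5.53, 9.13 and 9.68 in replicates 1 to 4, at 10 µM chromium 6.78, 6.92, 8.74 and 8.76, and at 1.2 µM cadmium 7.39, 7.93, 9.44 and 9.97. The control arrays gave 9.14 and 9.13 in replicate 1, 9.23 and 9.48 in replicate 2, 11.26 and 11.17 in replicate 3, and 11.40 and 10.70 in replicate 4. Replicates 1 and 2 were below replicates 3 and 4 in the controls and in all 3 exposures, and because of this gap only the chromium arrays lay wholly below the control arrays. Within a replicate the exposed array was below both of its control arrays in 4 of 4 replicates of each metal.

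Set against the mean of its own controls, Fabp1 differed at 400 µM nickel by -3.85, -3.82, -2.09 and -1.37 in replicates 1 to 4. At 10 µM chromium the differences were -2.35, -2.43, -2.48 and -2.29, and at 1.2 µM cadmium -1.74, -1.42, -1.77 and -1.08. The chromium differences were nearly the same in every replicate, while those of nickel were larger in replicates 1 and 2 than in replicates 3 and 4. Of these nickel arrays, that of replicate 4 took a title that names a repeated microarray, and that of replicate 3 did not. The mean differences were -2.78 for nickel, -2.39 for chromium and -1.50 for cadmium, that is 6.88-fold, 5.23-fold and 2.83-fold lower. In replicates 1 and 2 alone they were -3.84 for nickel and -2.39 for chromium. Among the 15521 tested probe sets, Fabp1 had the 2nd lowest change at 400 µM nickel, the 3rd lowest at 10 µM chromium and the 6th lowest at 1.2 µM cadmium. These values are a description, since Fabp1 was chosen for them, and no test is given for this gene.

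Below the high concentration the differences of Fabp1 were smaller. For nickel, the differences in replicates 1 to 4 were -0.85, -0.47, -0.11 and -0.10 at 40 µM and -1.33, -1.04, -1.28 and -0.06 at 140 µM. For chromium, they were -0.88, -0.78, -0.38 and -0.26 at 0.275 µM and -1.04, -0.68, -0.64 and -0.28 at 1 µM. For cadmium, they were 0.03, 0.13, 0.15 and 0.40 at 0.2 µM and -1.10, -0.60, -0.31 and 0.23 at 0.55 µM. Nickel and chromium arrays were thus below the mean of their controls in 4 of 4 replicates at every concentration. Some of them, such as that of replicate 4 at 140 µM nickel (10.99), still lay above 1 of their 2 control arrays. Cadmium arrays were all above the mean of their controls at 0.2 µM and below it in 3 of 4 replicates at 0.55 µM. Over the 10 conditions the mean signal was lowest at 400 µM nickel (7.40 ± 2.32, SD, n = 4), followed by 10 µM chromium (7.80 ± 1.10) and 1.2 µM cadmium (8.68 ± 1.22). The order went on with 140 µM nickel (9.26), 1 µM chromium (9.53), 0.275 µM chromium (9.61), 0.55 µM cadmium (9.74), 40 µM nickel (9.81), the controls (10.19 ± 1.03, SD over 8 arrays) and 0.2 µM cadmium (10.36). Neighbours in this order differed by less than the SD within a condition, which includes the gap between replicates 1 and 2 and replicates 3 and 4. Within a replicate, the 10 µM chromium array was below the 1.2 µM cadmium array in 4 of 4 replicates. The 400 µM nickel array was below the 10 µM chromium array only in replicates 1 and 2.

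**Figure D1:**
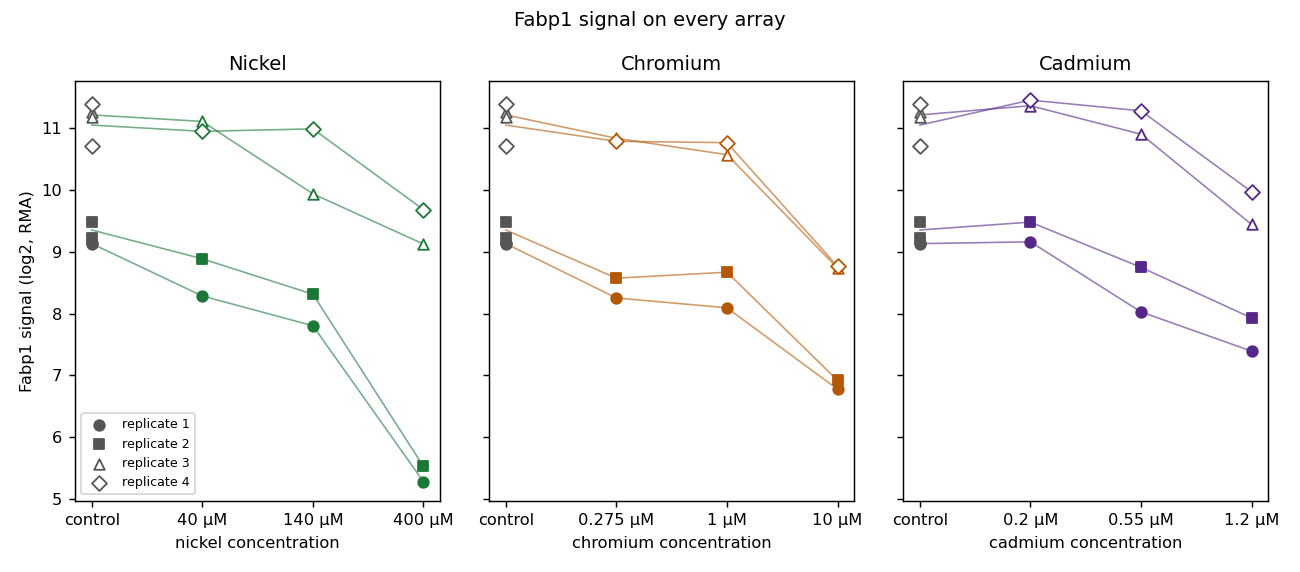
Log2 signal of Fabp1 on every array, with 1 panel per metal and the controls followed by the 3 concentrations (µM) from left to right. Symbols stand for replicates (filled for 1 and 2, open for 3 and 4), and lines join the arrays of a replicate, starting at the mean of its 2 control arrays. Every line ends below its own controls, and replicates 1 and 2 run below replicates 3 and 4 throughout.

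The other 8 genes were tested with limma against the controls of the same replicates, and a gene was called at an adjusted p under 0.05 over all 15521 probe sets that passed a filter on low signal. Ehhadh did not pass the filter, which leaves 7 genes. At 400 µM nickel 6 of the 7 fell, where 16.9% of all tested probe sets were called lower and 24% higher. At 10 µM chromium 5 fell, against 19.6% called lower and 23.5% higher over all probe sets. At 1.2 µM cadmium 2 fell (Acsl1 and Acadm) and 1 rose (Acadl), where 14% of all were called lower and 24.5% higher. The median log2 change of the 7 genes was -0.50 at 400 µM nickel, -0.45 at 10 µM chromium and -0.08 at 1.2 µM cadmium, and that of all probe sets was 0.02, 0.02 and 0.04 for the same exposures. Acsl1 and Acadm were called lower with all 3 metals, Acadl and Hadha with nickel and chromium, Cpt1a and Cpt2 with nickel and Ppara with chromium. The count for nickel rested in part on replicate 2: without it 3 genes were called lower, Acadm (adjusted p = 0.0745), Acadl (0.0894) and Hadha (0.0562) being lost. Over all probe sets, 1463 of 15521 were called lower with nickel without replicate 2, against 2617 with all replicates. Without the replicate block, Cpt1a (adjusted p = 0.113) and Cpt2 (0.092) were not called with nickel, nor Acadl (0.0598) and Ppara (0.0538) with chromium, nor Acsl1 (0.057) with cadmium. Over all probe sets, the calls lower were then 1521 with nickel, 2116 with chromium and 1294 with cadmium. With the block they were 2617, 3035 and 2175.

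Acsl1, which activates long-chain fatty acids by joining them to coenzyme A, changed most among the tested members. Its log2 signal was 8.37, 8.73, 10.82 and 11.10 at 400 µM nickel, 9.88, 10.15, 10.16 and 10.61 at 10 µM chromium, and 9.93, 10.22, 10.79 and 11.00 at 1.2 µM cadmium. The control arrays gave 10.92 and 10.82, 10.92 and 10.98, 11.66 and 11.58, and 11.78 and 11.55 in replicates 1 to 4. The chromium arrays were all below the lowest control array, and every nickel and cadmium array was below the controls of its own replicate. Acsl1 fell by 1.52 on the log2 scale with nickel (SE 0.28, 2.87-fold lower, limma adjusted p = 9.52e-04), by 1.08 with chromium (SE 0.10, 2.11-fold lower, adjusted p = 4.21e-06) and by 0.79 with cadmium (SE 0.06, 1.73-fold lower, adjusted p = 5.64e-07). The next brightest probe set of Acsl1 gave -1.51, -1.11 and -0.85 for the same metals. Like Fabp1, Acsl1 differed more from its controls in replicates 1 and 2 of nickel (-2.50 and -2.21) than in replicates 3 and 4 (-0.80 and -0.57).

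At the carnitine shuttle nickel differed from both other metals, by the tests between metals given further on. Cpt1a, whose enzyme sets the rate at which fatty acids enter mitochondria, gave 8.20, 8.63, 9.93 and 10.18 at 400 µM nickel, 9.76, 9.94, 10.00 and 10.23 at 10 µM chromium, and 10.04, 10.14, 10.51 and 10.57 at 1.2 µM cadmium. Its control arrays gave 9.71 and 9.62, 9.85 and 9.91, 10.33 and 10.33, and 10.50 and 10.48 in replicates 1 to 4. Exposed and control arrays overlapped for each metal, but the nickel arrays were all below their own controls and the cadmium arrays all above them. Cpt1a fell by 0.85 with nickel (SE 0.17, 1.81-fold lower, limma adjusted p = 0.00175), and its changes of -0.11 with chromium (adjusted p = 0.446) and 0.22 with cadmium (adjusted p = 0.0753) were not called. The other Cpt1a probe set gave -1.02 with nickel (adjusted p = 2.78e-04), -0.39 with chromium (adjusted p = 0.0188) and 0.14 with cadmium (adjusted p = 0.469), so the probe sets disagree on the call for chromium. With the mean of its 2 probe sets, limma called Cpt1a lower with chromium (-0.25, adjusted p = 0.00364) and higher with cadmium (0.18, adjusted p = 0.0416).

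Cpt2, which hands the fatty acid back to coenzyme A inside the mitochondrion, followed the same order. It gave 6.99, 6.96, 7.28 and 7.60 at 400 µM nickel, 7.68, 7.68, 7.74 and 7.89 at 10 µM chromium, and 7.83, 7.76, 7.98 and 8.15 at 1.2 µM cadmium, against 7.71 and 7.60, 7.43 and 7.58, 7.70 and 7.76, and 7.98 and 7.90 in the controls of replicates 1 to 4. Every nickel array was below its own controls and every cadmium array above the mean of its own. Cpt2 fell by 0.50 with nickel (SE 0.10, limma adjusted p = 0.00183), and its changes of 0.04 with chromium (adjusted p = 0.853) and 0.22 with cadmium (adjusted p = 0.151) were not called.

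The medium-chain dehydrogenase gene Acadm fell with each metal. Its log2 signal was 7.98, 8.05, 8.80 and 9.09 at 400 µM nickel, 8.75, 8.68, 8.55 and 8.60 at 10 µM chromium and 8.72, 8.68, 8.77 and 8.82 at 1.2 µM cadmium, and its 8 control arrays lay between 8.99 and 9.26. The chromium and cadmium arrays did not overlap the controls, and of the nickel arrays only that of replicate 4 did. The changes were -0.65 with nickel (SE 0.16, limma adjusted p = 0.00619), -0.48 with chromium (SE 0.07, adjusted p = 7.92e-05) and -0.38 with cadmium (SE 0.06, adjusted p = 4.29e-04).

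The long-chain dehydrogenase gene Acadl was called lower with nickel and chromium and higher with cadmium. It gave 10.19, 10.22, 10.49 and 10.46 at 400 µM nickel, 10.61, 10.28, 10.29 and 10.29 at 10 µM chromium and 11.11, 11.00, 10.89 and 10.96 at 1.2 µM cadmium, and its control arrays lay between 10.52 and 10.81. All nickel arrays were below and all cadmium arrays above the whole range of the controls. Acadl fell by 0.31 with nickel (SE 0.08, limma adjusted p = 0.0085) and by 0.28 with chromium (SE 0.08, adjusted p = 0.0109), and rose by 0.34 with cadmium (SE 0.08, adjusted p = 0.00423). The nickel call was lost without replicate 1 (adjusted p = 0.0842) or replicate 2 (0.0894), and the chromium call without replicate 2 (0.0786). The cadmium differences from the controls of the same replicate were 0.34, 0.34, 0.32 and 0.35 in replicates 1 to 4.

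Hadha fell with nickel and chromium. It gave 8.74, 9.04, 9.42 and 9.42 at 400 µM nickel, 9.14, 9.05, 9.07 and 9.12 at 10 µM chromium and 9.49, 9.44, 9.43 and 9.51 at 1.2 µM cadmium, with control arrays between 9.47 and 9.69. Nickel and chromium arrays lay wholly below the controls. The changes were -0.39 with nickel (SE 0.09, limma adjusted p = 0.00558), -0.45 with chromium (SE 0.05, adjusted p = 2.25e-05) and -0.08 with cadmium (adjusted p = 0.263). The other 2 probe sets of Hadha and the third of Acsl1 were dim, with mean signals of 5.79, 4.62 and 4.38, and were not tested. With the mean of its 3 probe sets in place of the brightest, Hadha was not called with nickel (adjusted p = 0.0927).

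Ehhadh, the peroxisomal enzyme, had a mean signal of 5.28, below that of most probe sets, and was not tested. Its mean difference was -0.22 at 400 µM nickel, -0.30 at 10 µM chromium and -0.14 at 1.2 µM cadmium, with 3, 4 and 3 of 4 replicates below the mean of their controls for the same metals.

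Ppara itself gave 5.07, 5.92, 7.22 and 6.54 at 400 µM nickel, 5.51, 5.46, 6.01 and 5.96 at 10 µM chromium and 5.69, 6.09, 6.16 and 6.24 at 1.2 µM cadmium. The controls gave 5.69 and 6.27, 6.04 and 6.11, 6.93 and 6.54, and 6.56 and 6.39 in replicates 1 to 4. Groups overlapped for every metal, and the nickel arrays were below their controls in replicates 1 and 2 and above the mean of them in replicates 3 and 4. Ppara fell by 0.58 with chromium (SE 0.17, limma adjusted p = 0.0132), a call lost without replicate 1 (adjusted p = 0.0563) or replicate 3 (0.0656). Its changes of -0.13 with nickel (adjusted p = 0.647) and -0.27 with cadmium (adjusted p = 0.212) were not called.

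**Figure D2:**
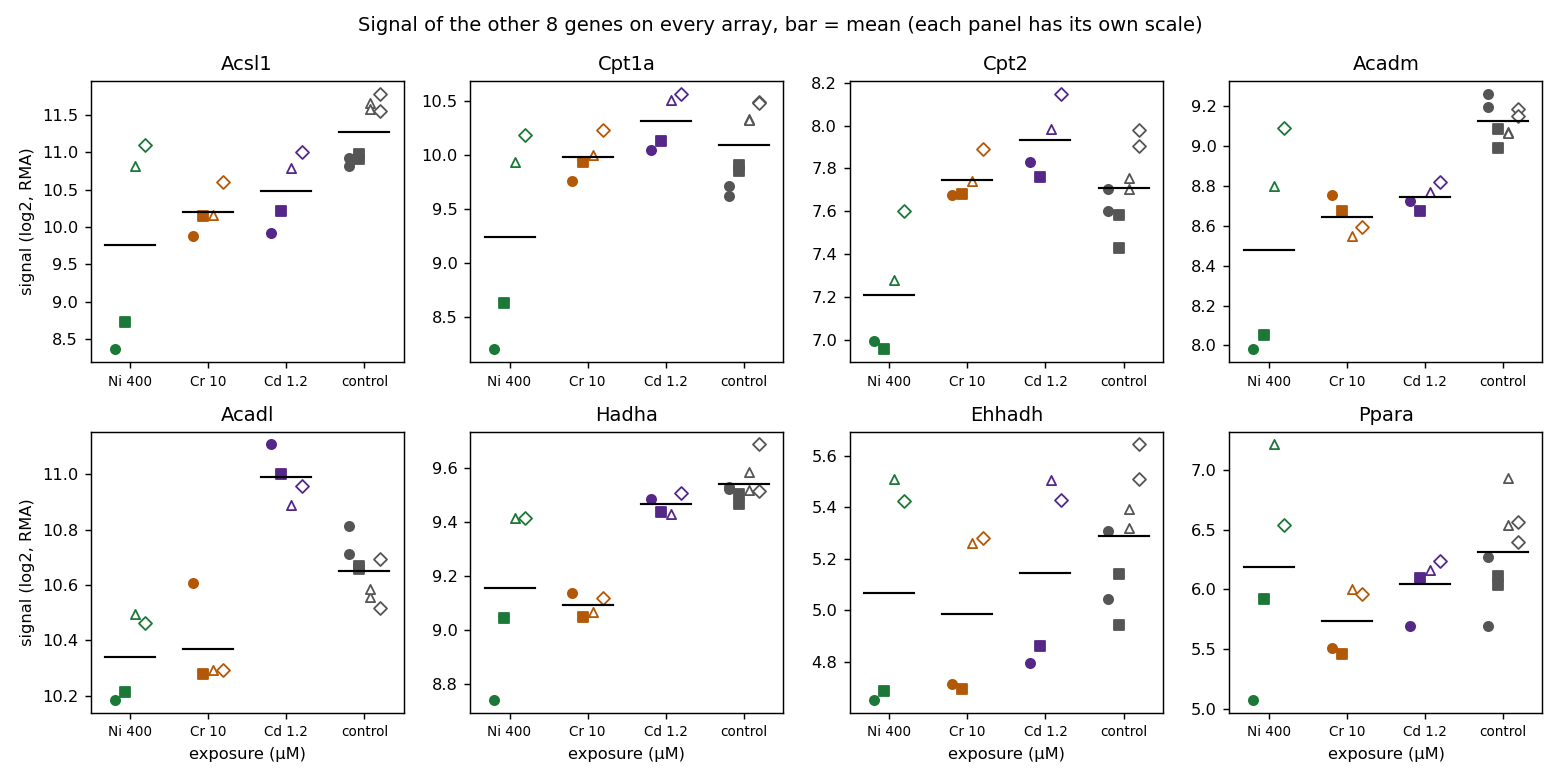
Log2 signal of the 8 other genes on each array at 400 µM nickel, 10 µM chromium and 1.2 µM cadmium and in the controls, with 1 panel per gene on its own scale. Points are single arrays marked by replicate and bars are group means. Acadl lies above its controls with cadmium and below them with nickel, and Acadm lies below its controls on all chromium and cadmium arrays.

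At the low and middle concentrations few calls were made. At 0.55 µM cadmium Acsl1 fell by 0.21 (SE 0.06, limma adjusted p = 0.0374), the 1 call among the 7 genes, where 10.9% of all probe sets were called in either direction. Several alternatives ended this call, and in 1 fit over all metals its adjusted p was 0.566. None of the 7 genes was called at the other 5 exposures, by limma or by the linear model without moderated variance. Over all probe sets, 0% were called at 40 µM nickel, 3.47% at 140 µM nickel, 0% at 0.275 µM chromium, 0.0451% at 1 µM chromium and 0.49% at 0.2 µM cadmium. At an unadjusted p under 0.05, 1 gene passed at 0.275 µM chromium, 1 at 1 µM chromium and 0 at each of the other 3. Over all probe sets, 1452 of 15521 passed this threshold at 0.275 µM chromium and 1294 at 1 µM chromium. At 40 µM nickel 602 passed, at 140 µM nickel 2944 and at 0.2 µM cadmium 1530.

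**Figure D3:**
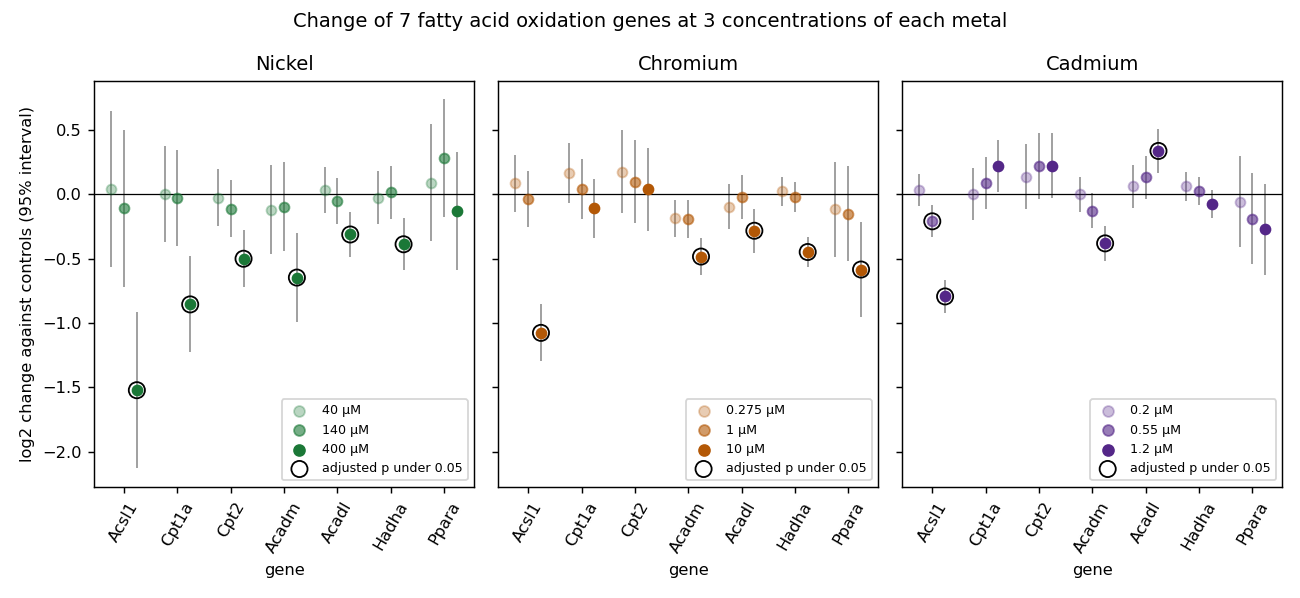
Fitted log2 change of each tested gene against the controls for the 9 exposures, with bars for the 95% confidence interval and a black ring where the limma adjusted p was under 0.05. The ringed points lie at the high concentrations, apart from Acsl1 at 0.55 µM cadmium, and all are below 0 but that of Acadl at 1.2 µM cadmium.

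The differences between metals were tested directly at the high concentrations, in 1 fit over all exposures, and 9 of the 21 tests on the 7 genes were called. Nickel was below chromium for 2 genes, Cpt1a (difference -0.75, limma adjusted p = 4.65e-04) and Cpt2 (-0.54, adjusted p = 0.00273), where 45.4% of all probe sets were called. Nickel was below cadmium for 5 genes, where 45.8% of all were called: Cpt1a (-1.08, adjusted p = 3.76e-06), Cpt2 (-0.72, adjusted p = 1.29e-04), Acadl (-0.65, adjusted p = 5.42e-07), Hadha (-0.31, adjusted p = 7.85e-04) and Acsl1 (-0.73, adjusted p = 0.00546). Chromium was below cadmium for 2 genes, where 44.4% of all were called: Acadl (-0.62, adjusted p = 1.21e-06) and Hadha (-0.37, adjusted p = 1.12e-04). The shares over all probe sets count both directions. In the direction of the members, 3435 of 15521 probe sets were called with nickel below chromium and 3925 with nickel below cadmium. With chromium below cadmium, 3848 were called. Beside these counts, 5 of 7 for nickel against cadmium is a larger share, and 2 of 7 for the other pairs is near theirs.

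The differences of Acadm were not called and rested on single replicates. Nickel minus chromium was -0.16 (95% interval -0.43 to 0.10), between -0.38 without replicate 4 (adjusted p = 0.0182) and 0.04 without replicate 1. Nickel minus cadmium was -0.27 (adjusted p = 0.0922), between -0.44 without replicate 4 (adjusted p = 0.00693) and -0.11 without replicate 1. Ppara differed by 0.45 between nickel and chromium (adjusted p = 0.0918), and Acsl1 by -0.45 (adjusted p = 0.0868), neither of which was called with all replicates. Without replicate 1 Ppara was called (adjusted p = 0.0155), as was Acsl1 without replicate 3 (0.0108) or replicate 4 (0.0113). Without the 4 arrays titled as repeated, Acadm was called between nickel and chromium (adjusted p = 0.00752) and between nickel and cadmium (8.67e-04). In that setting Acsl1 was called between nickel and chromium (0.00263), and Cpt1a (0.0267) and Cpt2 (0.0215) between chromium and cadmium. The call for Acsl1 between nickel and cadmium was lost without replicate 1 (adjusted p = 0.131) or replicate 2 (0.13), and that for Hadha without replicate 1 (0.0531). With the mean of its 3 probe sets, Hadha was not called between nickel and cadmium (adjusted p = 0.268) or between chromium and cadmium (0.058). With the mean of its 2 probe sets, Cpt1a was called between chromium and cadmium (-0.43, adjusted p = 0.00669). Without the replicate block, Cpt1a was not called between nickel and chromium (adjusted p = 0.0663), nor Acsl1 between nickel and cadmium (0.177). For Fabp1, given with no test, nickel minus chromium was -0.40, nickel minus cadmium -1.28 and chromium minus cadmium -0.88. The first of these lay between -0.83 without replicate 4 and -0.03 without replicate 1, and in replicates 3 and 4 the nickel arrays (9.13 and 9.68) were above the chromium arrays (8.74 and 8.76).

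The spread between replicates of the nickel exposure touched all members, and it was described after its values had been seen. At 400 µM nickel the differences from the controls in replicates 1 and 2 were both below those in replicates 3 and 4 for all 8 members that passed the filter, Fabp1 included, as they were for 31.3% of all tested probe sets and 54.8% of those called lower. At 10 µM chromium this held for 0 of the 8 members (23.5% of all), and at 1.2 µM cadmium for 1 (24.9% of all). The opposite split, with replicates 1 and 2 both above replicates 3 and 4, held for 5 of the 8 members with chromium (23.1% of all). With cadmium it held for 2 (19.5% of all) and with nickel for 0 (25.8% of all). Over all tested probe sets the differences at 400 µM nickel had an SD of 0.566 and 0.461 in replicates 1 and 2, against 0.310 and 0.378 in replicates 3 and 4. In replicates 1 and 2, 20 of 22 arrays have the same condition in both orders. With these replicates alone, limma called all 7 genes lower with nickel, Ppara among them (-0.53, adjusted p = 0.0444), and 5 with chromium. Over all probe sets, 22.8% were called lower with nickel and 16.3% with chromium. These replicates hold the larger nickel differences, so their nickel calls are no separate result, and each fit left 3 residual degrees of freedom. With nickel Ppara differed by -0.91 and -0.15 in replicates 1 and 2 and by 0.48 and 0.06 in replicates 3 and 4.

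**Figure D4:**
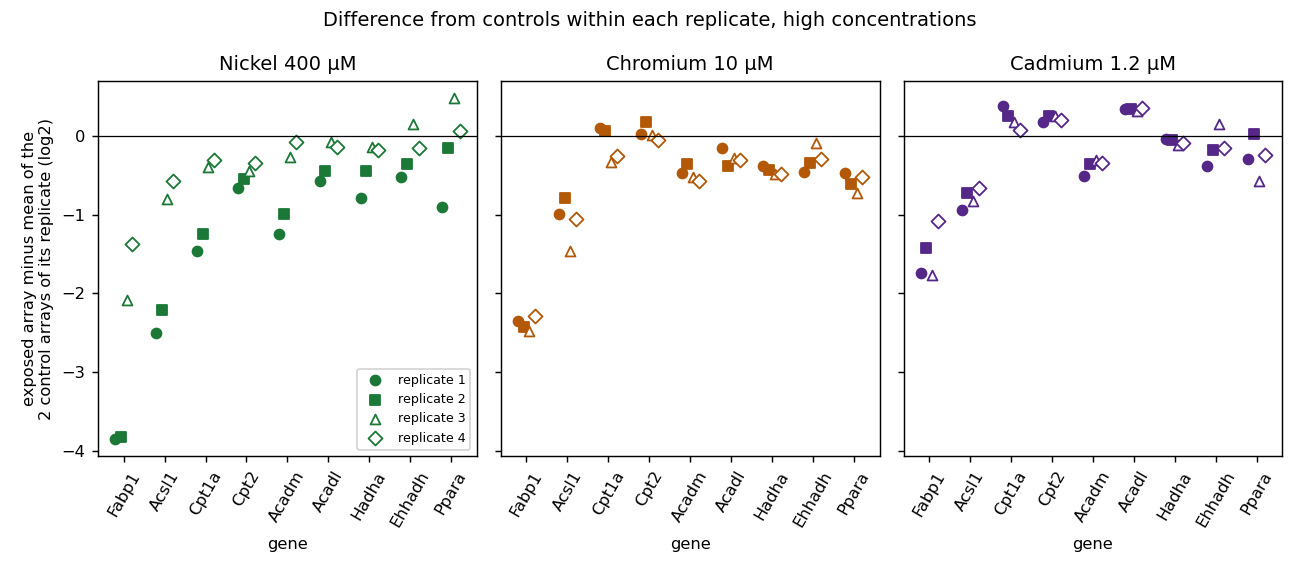
Difference in log2 signal of each of the 9 genes from the mean of the 2 control arrays of its replicate at 400 µM nickel, 10 µM chromium and 1.2 µM cadmium, with points marked by replicate. The nickel points of replicates 1 and 2 lie below those of replicates 3 and 4, while the chromium points of Fabp1 lie between -2.48 and -2.29.

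The replicates also differed without metal, and again Fabp1 stood at the end of the list. In the controls of replicates 3 and 4 its mean signal was 11.13, against 9.24 in those of replicates 1 and 2, and this difference of 1.89 was the highest of the 15521 probe sets (median -0.01, SD 0.23). The same difference was 0.74 for Acsl1, 0.64 for Cpt1a, 0.58 for Ppara and 0.25 for Cpt2, and it lay between -0.12 and 0.07 for Acadl, Acadm and Hadha. The gaps of Fabp1, Acsl1, Cpt1a and Ppara were above 2 SD of that difference over all probe sets, and that of Cpt2 was near 1 SD. Nothing in the sources used here ties the replicate numbers to a date or a batch.

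The other genes of the pathway were taken from 6 lists that were drawn up with earlier results known, 90 genes of which 64 passed the filter. Their counts stand beside 16.9%, 19.6% and 14% of all probe sets called lower with nickel, chromium and cadmium at the high concentrations and 24%, 23.5% and 24.5% called higher. Some counts of the smaller lists lie near these shares, such as 2 of 8 partners of PPARα lower with chromium. Of 17 other enzymes of mitochondrial beta-oxidation, 9 fell at 400 µM nickel, 14 at 10 µM chromium and 7 at 1.2 µM cadmium, where 1 rose, with median log2 changes of -0.34, -0.44 and -0.14 for the same metals. The largest falls were those of Hadh, the dehydrogenase for shorter hydroxyacyl chains, at -0.94 with nickel (adjusted p = 0.00249), -0.75 with chromium (adjusted p = 1.69e-05) and -0.29 with cadmium (adjusted p = 0.00918), and of Eci1, an isomerase for unsaturated chains, at -0.45, -0.83 and -0.38. Hadhb, the beta subunit of the trifunctional protein, rose by 0.37 with cadmium (adjusted p = 0.00802), while Hadha was not called there.

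Of 12 tested genes of peroxisomal oxidation, 9 fell with nickel, 5 fell and 1 rose with chromium, and 4 fell and 1 rose with cadmium, with medians of -0.58, -0.25 and -0.13. Amacr, a racemase for branched chains, fell by 1.19 with nickel (adjusted p = 0.00161) and by 0.73 with cadmium (adjusted p = 1.11e-06), and gave 0.02 with chromium (adjusted p = 0.774). Phyh, which starts the breakdown of phytanic acid, fell with each metal, by 0.86, 0.64 and 0.52. Crot, a carnitine transferase for medium chains, rose by 0.59 with cadmium (adjusted p = 2.56e-04), and the thioesterase gene Acot4 rose by 0.58 with chromium (adjusted p = 0.0167) and fell by 0.83 with nickel (adjusted p = 3.87e-04).

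Of 8 tested genes of ketone body formation and others that respond to PPARα, 4 fell and 1 rose with nickel, 4 fell with chromium, and 2 fell and 4 rose with cadmium. Their median changes were -0.30, -0.27 and 0.08. Bdh1, which makes hydroxybutyrate, fell by 0.87, 1.10 and 0.39 with nickel, chromium and cadmium, and Creb3l3, a liver transcription factor, fell by 0.64 with nickel (adjusted p = 0.00135) and by 0.98 with chromium (adjusted p = 3.45e-06). With cadmium Angptl4, an inhibitor of lipoprotein lipase, rose by 0.89 (adjusted p = 7.95e-05) and the mitochondrial carrier gene Ucp2 by 0.80 (adjusted p = 0.00477). Some genes of this list thus rose with cadmium where Fabp1 and Acsl1 were lower.

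Among 8 tested partners of PPARα and related receptors, none was called by limma with nickel (lowest adjusted p = 0.0549, for the receptor gene Esrra), 2 fell and 1 rose with chromium, and 1 fell with cadmium. Lpin1, a phosphatidate phosphatase and coactivator, fell by 0.58 with chromium (adjusted p = 1.40e-05) and by 0.49 with cadmium (adjusted p = 0.00172), the corepressor gene Ncor1 fell by 0.16 with chromium (adjusted p = 0.0312), and the coactivator gene Ppargc1b rose by 0.51 with chromium (adjusted p = 0.00573). Of 7 tested genes of fatty acid binding, uptake and activation, 5 fell with nickel, 3 with chromium and 2 with cadmium, where 2 rose. Dbi, the acyl-CoA binding protein, fell by 1.03, 0.57 and 0.53 with nickel, chromium and cadmium, and Acsl5, another synthetase, fell by 0.63 with nickel (adjusted p = 0.00159). Fabp5, a binding protein of skin and other tissues, rose by 0.26 with cadmium (adjusted p = 0.0438), as did the transporter gene Slc27a4, by 0.21 (adjusted p = 0.0172).

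The opposite pathway, fatty acid and triglyceride synthesis, held more genes that fell than rose with each metal. Of its 12 tested genes 5 fell and 1 rose with nickel, 10 fell with chromium and 5 fell with cadmium, with medians of -0.27, -0.39 and -0.21. Fasn, the fatty acid synthase, fell by 1.03 with nickel (adjusted p = 4.19e-06), by 0.46 with chromium (adjusted p = 7.90e-05) and by 0.36 with cadmium (adjusted p = 3.37e-04), and the elongase gene Elovl6 by 0.87, 0.33 and 0.36. Me1, which supplies NADPH, rose by 0.46 with nickel (adjusted p = 0.00179).

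**Figure D5:**
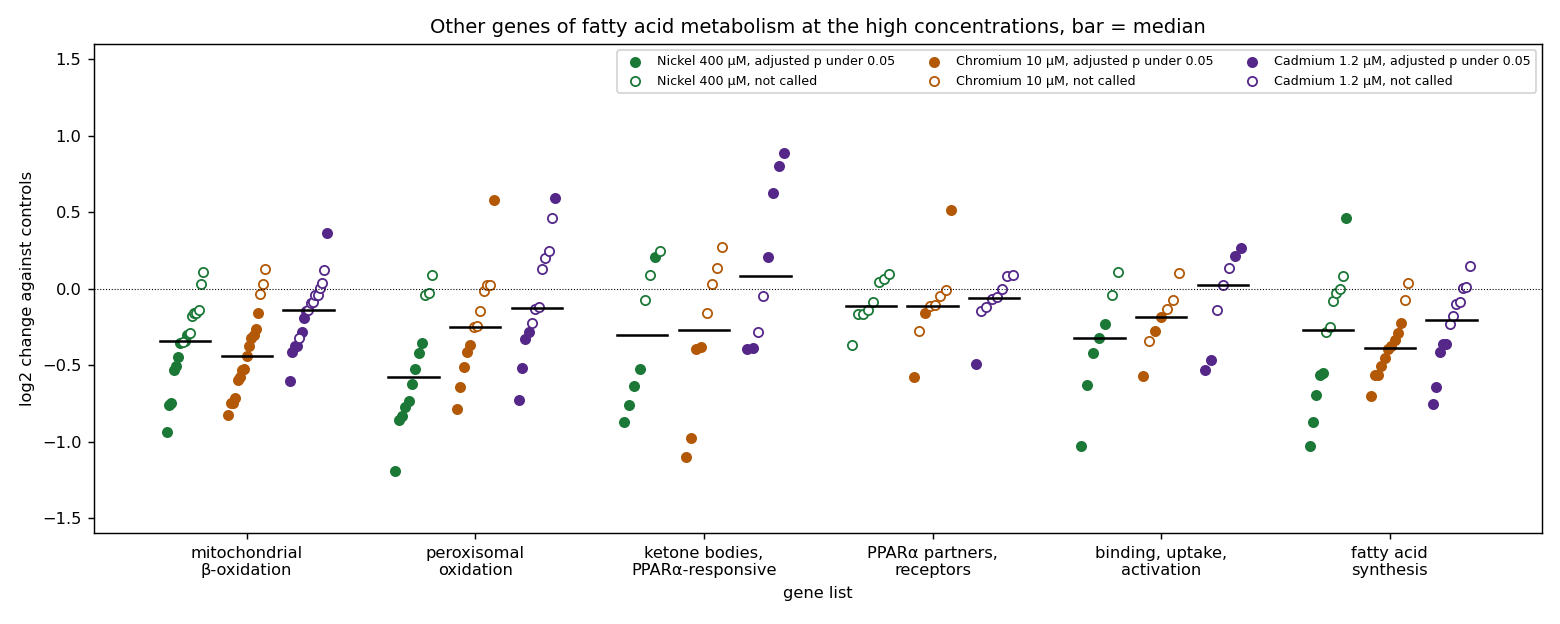
Log2 change of the tested genes of each pathway list at 400 µM nickel, 10 µM chromium and 1.2 µM cadmium, with filled points for genes called by limma and bars for the list median. Mitochondrial enzymes lie mostly below 0 with nickel and chromium, and the genes that respond to PPARα lie on both sides of 0 with cadmium.

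Across the 10 condition means Acadm (r = 0.97), Acsl1 (0.95) and Hadha (0.92) varied most like Fabp1 among the members, then Ehhadh (0.84), Cpt1a (0.65), Cpt2 (0.57), Acadl (0.54) and Ppara (0.52), beside a median of -0.06 over the 12221 annotated probe sets compared. The probe sets most like Fabp1 were those of Abcb4 (r = 0.989), Pomk (0.988 and 0.985 for 2 probe sets), Mff (0.986) and Usp11 (0.986). These means share control arrays and replicates, and the values are a description only. Abcb4 exports phospholipid into bile, Pomk is a kinase acting on glycans, Mff is a factor of mitochondrial fission and Usp11 removes ubiquitin.

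Markers of liver cells were present and moved with the metals. Of 9 markers of liver parenchyma and hepatoma, 7 passed the filter, among them Alb with a mean signal of 14.5. Of these, 5 fell at 400 µM nickel, 4 at 10 µM chromium and 5 at 1.2 µM cadmium, where 0, 1 and 1 rose for the same metals. Over all probe sets, 16.9%, 19.6% and 14% were called lower and 24%, 23.5% and 24.5% higher for these exposures. Ttr, which carries thyroid hormone, fell by 1.62, 1.16 and 0.56 with nickel, chromium and cadmium, while the fibrinogen gene Fgb rose by 0.45 with chromium and by 0.43 with cadmium. All 12 markers of stromal, immune, endothelial and bile duct cells failed the filter, with mean signals from 4.23 to 5.60. The part of the liver markers' changes in the values of Fabp1 and the oxidation genes was not tested. The array medians lay between 5.93 and 5.99.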

How the data were processed

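RNA of H4-II-E-C3 cells was hybridised to Affymetrix whole-genome rat arrays. The deposited log2 values had been made by the authors with RMA (background adjustment, quantile normalisation and probe set summary over all arrays) with Partek software. Present and absent calls were not used here. RMA compresses changes of dim probe sets, and the 4 arrays per condition limit the precision. Of the probe sets that are not array controls, 20826 name 1 gene, 436 several and 9780 none. Conditions followed the order of titles described in the report: condition means in this order differed by at most 7.5e-06 from the means tabulated in the study for 992 probe sets, 4 of them members, and by up to 4.32 with the titles as attached. No array column was left out (0 not used).

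The filter kept 15521 probe sets, the upper 50% by the highest over conditions of the lowest array of a condition. A separate model per metal (limma 3.58.1, R 4.3.3) held terms for concentration and for the replicate, after the dose and batch terms of the methods. Paired control arrays were averaged beforehand, which left 9 residual degrees of freedom. Differences between metals came from 1 fit over all exposures. P-values were adjusted by Benjamini-Hochberg over all kept probe sets, and a probe set was called at an adjusted p under 0.05. The labels call the replicates biological. The methods relate batch to different dates of experiment and processing but do not give the date of an array. The fit was tested on simulated data for nickel at 400 µM against controls: of 200 changed probe sets among 15521, it recovered 73% at a log2 change of 0.5 and 100% at 1, with 8 false among 181 calls. The simulated noise of a probe set had the same spread in every condition, and its change was the same in every replicate. Recovery of changes that differ between replicates, as those at 400 µM nickel did, was not tested.

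The members and lists were chosen with earlier results of these data known. All members are named, with their brightest probe set; in each list up to 2 genes with the largest rise and up to 2 with the largest fall among those called; and the 5 probe sets with the highest correlation to Fabp1. Alternatives were other orders of the conditions, controls, filters, scalings, probe set rules, models and replicates left out.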

Additional observations from a re-analysis of the deposited data

Results flagged for a closer look

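In 4 of the 90 groups of 4 arrays of a member, 1 array stood apart from the others, where chance gives about 1 in 20. The gap to the nearest array, as a share of the range of the group, was 0.853 for Ppara at 140 µM nickel (replicate 3 at 6.92, the next array at 6.53), 0.938 for Cpt1a at 0.55 µM cadmium (replicate 1 at 9.67, the next at 10.32), 0.853 for Acadm at 40 µM nickel (replicate 2 at 8.82, the next at 9.05) and 0.957 for Acadl at 10 µM chromium (replicate 1 at 10.61, the next at 10.29).

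The tests between metals at the high concentrations gave 9 differences in 21 tests. Over all probe sets, 45.4% were called for nickel minus chromium, 45.8% for nickel minus cadmium and 44.4% for chromium minus cadmium. The 9 of 21 lies near these shares, and several of the 9 calls were lost in settings given above. Nickel minus chromium was -0.75 for Cpt1a and -0.54 for Cpt2. Nickel minus cadmium was -1.08 for Cpt1a, -0.72 for Cpt2, -0.65 for Acadl, -0.31 for Hadha and -0.73 for Acsl1. Chromium minus cadmium was -0.62 for Acadl and -0.37 for Hadha.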

How the results depend on the processing

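With the titles as attached to the arrays, limma called no member against controls. At an unadjusted p under 0.05, 3, 2 and 2 genes passed at the high concentrations of nickel, chromium and cadmium. The genes lower were 0 at 400 µM nickel, 10 µM chromium and 1.2 µM cadmium, against 6, 5 and 2 in the order used. The genes higher at 1.2 µM cadmium were 0, against 1. At 1.2 µM cadmium the values of Acadl (-0.012), Acsl1 (0.046), Fabp1 (0.095) and the uncalled Hadha (0.076) had the other sign with the attached titles. Between metals, the attached titles left 2 genes called with nickel below cadmium (Cpt1a and Cpt2), against 5 in the order used. With nickel below chromium 1 was left (Cpt1a), against 2, and with chromium below cadmium 0, against 2. The calls over all probe sets in these tests are not given here. Without the replicate block, 4 genes were lower with nickel, 3 with chromium and 1 with cadmium. The same setting called 1521, 2116 and 1294 of the 15521 probe sets lower. Deviations from the condition means correlated within a replicate number, with a median r of 0.62, 0.44, 0.49 and 0.49 for replicates 1 to 4 (45 pairs each) and -0.27 between numbers, but the lowest pair was at -0.32, so the numbers are not shown to pair all arrays. The count of genes higher at 1.2 µM cadmium was 2 with all 8 control arrays as separate samples, 2 with the mean of all probe sets of a gene, and 3 without the 4 arrays titled as repeated, a setting added after seeing the data. Over all probe sets, 4640, 3802 and 4934 were called higher with cadmium in the same settings, against 3800 in the fit used above. Leaving out each replicate in turn gave 3 to 6 genes lower with nickel, 4 to 5 with chromium and 2 to 3 with cadmium, and 1 to 3 higher with cadmium. Over all probe sets these settings called 1463 to 2838 lower with nickel, 2209 to 2986 with chromium and 1265 to 2732 with cadmium. They called 2237 to 4455 higher with cadmium. Over all settings, 1300 of the values of single genes kept their side of the threshold, 48 lost the call and 24 gained it. The sign changed for 2 called values, both given above, and for 69 values that were not called, such as Ppara at 400 µM nickel (-0.13, and 0.13 without replicate 1). The call of Acsl1 at 0.55 µM cadmium was lost in 10 settings. The cause of these changes was not tested. Dim probe sets, Ehhadh among them, limit what can be seen.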
